A study of Homo sapiens with 4 samples.

Results

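Imprinted growth regulators are genes read mainly from the copy inherited from a single parent, and many of them set the size of the fetus and the placenta. The set described here holds 10 of the 18640 genes measured: DLK1, MEG3, H19, IGF2, CDKN1C, PEG3, PEG10, MEST, PLAGL1 and GRB10. They were chosen by name, as all probesets (small groups of probes within an exon) whose only gene symbol in the platform annotation is that of a member, and this gave 87 of 218927 named probesets. The set was put together with earlier values of these arrays in view, which included the difference between replicate numbers that is largest at DLK1. That difference is therefore given as a description, with no test. Only MEG3 shares a cluster with DLK1 on chromosome 14. H19, IGF2 and CDKN1C lie on chromosome 11, PEG10, MEST and GRB10 on chromosome 7, PLAGL1 on chromosome 6 and PEG3 on chromosome 19.

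Embryoid bodies, floating aggregates in which pluripotent cells start to differentiate into a mixture of cell types, were made from BG01V. This established embryonic stem cell line is human and carries an abnormal karyotype. The control embryoid bodies received DMSO, the solvent, and the others received TBBD at 10 µM for 48 h. Per the labels' protocols the compound was usually added between days 2 and 4, the aggregates formed in conditioned medium with polyvinyl alcohol and were then moved to serum medium on gelatin, and no genetic change separates the groups. Per the series title, TBBD blocks methylation of histone H3 at arginine 17. Each group held 2 arrays of total RNA, numbered replicate 1 and replicate 2. The labels do not say whether a number stands for a culture, a day or an array run, so spread between the numbers may be biological or technical. A single cell line was used, and each RNA sample is a mixture of cell types.

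Imprinted genes sit in clusters, and each cluster has a control region that is methylated on the copy from either the mother or the father. DLK1, IGF2, PEG3, PEG10, MEST and PLAGL1 are known as expressed from the father's copy. MEG3, H19 and CDKN1C are known as expressed from the mother's copy, as is GRB10 in many tissues. IGF2 drives fetal growth through the insulin-like growth factor receptor, while CDKN1C and GRB10 restrain growth. DLK1 is abundant in fetal liver, mesenchyme and placenta. The arrays measured the sum of both copies, so nothing below speaks of which parental copy was read.

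The reference sequences nearest to these measurements are the promoters. Windows were available here for 5 of the 10 members, H19, MEG3, MEST, PLAGL1 and GRB10, with 19 windows in all. The sequences below are from RefSeq on build GRCh38.p14, written 5′ to 3′ along the gene's strand, and are the 250 bases before a start site, with each CpG, the dinucleotide that carries DNA methylation at imprinted control regions, in capitals. H19 and PLAGL1 are shown because their signal differed between the replicate numbers, and MEG3 and GRB10 because both TBBD arrays lay below both DMSO arrays. For a gene with several windows, the window shown is one with the most CpGs.
H19 chr11:2001267-2001516 minus strand: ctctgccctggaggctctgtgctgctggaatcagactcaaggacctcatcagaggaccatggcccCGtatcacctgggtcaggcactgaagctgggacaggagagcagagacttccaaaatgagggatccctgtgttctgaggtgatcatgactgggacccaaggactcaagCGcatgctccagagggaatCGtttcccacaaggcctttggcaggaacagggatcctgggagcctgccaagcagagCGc
PLAGL1 chr6:144008260-144008509 minus strand: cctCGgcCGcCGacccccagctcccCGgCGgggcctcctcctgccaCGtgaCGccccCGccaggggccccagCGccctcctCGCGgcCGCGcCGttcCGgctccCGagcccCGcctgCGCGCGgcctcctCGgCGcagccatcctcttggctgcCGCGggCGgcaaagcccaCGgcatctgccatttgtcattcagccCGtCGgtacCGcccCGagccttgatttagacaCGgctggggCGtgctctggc
MEG3 chr14:100825858-100826107 plus strand: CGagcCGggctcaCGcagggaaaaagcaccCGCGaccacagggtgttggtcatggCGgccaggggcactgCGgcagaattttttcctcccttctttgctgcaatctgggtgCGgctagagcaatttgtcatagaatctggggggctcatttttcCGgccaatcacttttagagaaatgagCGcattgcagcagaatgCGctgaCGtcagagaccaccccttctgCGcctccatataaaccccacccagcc
GRB10 chr7:50792875-50793124 minus strand: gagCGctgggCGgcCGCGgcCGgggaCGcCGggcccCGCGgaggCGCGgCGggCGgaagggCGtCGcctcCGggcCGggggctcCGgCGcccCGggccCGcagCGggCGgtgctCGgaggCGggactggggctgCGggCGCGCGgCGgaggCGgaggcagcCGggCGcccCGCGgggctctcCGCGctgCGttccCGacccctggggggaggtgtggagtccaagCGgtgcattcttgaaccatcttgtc

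The H19 window held 4 CpGs, the MEG3 window 13, the PLAGL1 window 32 and the GRB10 window 40, against a median of 11 over all 35116 windows of this length. The H19 window thus had fewer CpGs than the typical promoter window, and the PLAGL1 and GRB10 windows had more than 90.5% and 97.8% of all windows. The short motifs of the TATA box, the CCAAT box and the GC box were searched on both strands, and none of them contains another. TATAAA was in the MEG3 window and in 10.7% of all windows, and CCAAT was also in the MEG3 window and in 32.0% of all. GGGCGG was in the PLAGL1 and GRB10 windows and in 42.6% of all, and each copy of it holds a CpG. None of these 3 motifs was in the H19 window.

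Some members also span microRNA genes. Of the microRNAs in the RefSeq table, 5 mature forms lie within the span of a member: miR-675 within H19, miR-335 within MEST and miR-770 within MEG3. They are printed 5′ to 3′ with the seed, bases 2 to 8, in capitals, and no seed is shared. They show which small RNAs a change in a host transcript could carry along, and their own levels were not analysed here.
hsa-miR-675-5p chr11:1996800-1996822 minus strand: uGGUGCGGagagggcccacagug
hsa-miR-675-3p chr11:1996768-1996787 minus strand: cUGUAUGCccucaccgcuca
hsa-miR-335-5p chr7:130496126-130496148 plus strand: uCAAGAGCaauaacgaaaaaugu
hsa-miR-335-3p chr7:130496162-130496183 plus strand: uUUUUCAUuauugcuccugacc
hsa-miR-770-5p chr14:100852409-100852431 plus strand: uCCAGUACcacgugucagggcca

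DLK1, a transmembrane protein with EGF-like repeats that acts on Notch signalling, showed the widest gap of any gene between the replicate numbers. Its log2 RMA signal was 6.30 on DMSO replicate 1 and 6.34 on TBBD replicate 1, against 10.04 on DMSO replicate 2 and 10.46 on TBBD replicate 2. Both replicate 2 arrays thus lay far above both replicate 1 arrays, whatever the treatment. The mean difference, replicate 2 minus replicate 1, was 3.93 on the log2 scale, or 15.2-fold, and it held rank 1 among 18640 genes. It also held rank 1 within DMSO alone, at 3.75, and within TBBD alone, at 4.11. All 10 DLK1 probesets were higher on both replicate 2 arrays, by 2.02 to 5.10. In bulk RNA, more cells of a DLK1-expressing type and more DLK1 RNA per cell cannot be told apart.

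**Figure D1:**
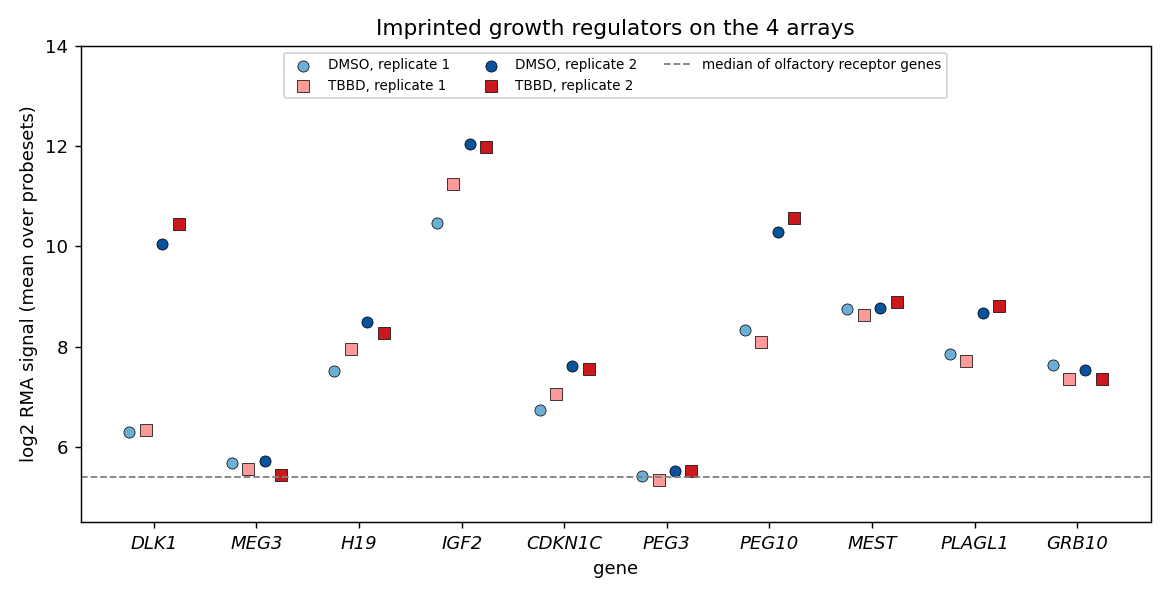
Log2 RMA signal of the 10 imprinted genes (mean over the probesets of each gene), 1 point per array: circles DMSO, squares TBBD, light replicate 1, dark replicate 2. The dashed line is the median of 348 olfactory receptor genes, 5.40. DLK1 goes from 6.30 and 6.34 in replicate 1 to 10.04 and 10.46 in replicate 2, while the means of MEG3 and PEG3 stay near the line. Single MEG3 probesets, averaged here, reach a mean of 7.53.

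The signal of IGF2, the fetal growth factor, was 10.47 on DMSO replicate 1, 11.25 on TBBD replicate 1, 12.05 on DMSO replicate 2 and 11.98 on TBBD replicate 2. Replicate 2 was higher by 1.16, or 2.23-fold. The gap was 1.59 within DMSO and 0.73 within TBBD, since the replicate 1 TBBD array already lay above its DMSO partner. Only 2 probesets carry IGF2 as their sole symbol. A further 14 carry IGF2 together with INS-IGF2, a read-through transcript of the insulin and IGF2 genes, and cannot be assigned to either. On average these shared probesets stood at 9.45 and 10.03 on the DMSO and TBBD arrays of replicate 1 and at 10.87 and 10.88 on those of replicate 2. Of the 14, 11 were higher on both replicate 2 arrays. The differences of the 14 ran from -0.038 to 2.11, with a mean of 1.13, beside 1.16 for the 2 probesets of IGF2 alone.

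CDKN1C, which encodes the cyclin-dependent kinase inhibitor p57, had a signal of 6.74 on DMSO replicate 1, 7.05 on TBBD replicate 1, 7.61 on DMSO replicate 2 and 7.55 on TBBD replicate 2. It was higher in replicate 2 by 0.69 (0.37 with the median over probesets), with 4 of 6 probesets higher on both arrays and 1 lower on both. GRB10, an adaptor protein that binds and dampens the insulin and IGF receptors, had 7.64 and 7.35 on the replicate 1 DMSO and TBBD arrays and 7.54 and 7.35 on those of replicate 2. Its order followed treatment and not number, and replicate 2 minus replicate 1 was -0.054 (-0.21 with the median over probesets).

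PLAGL1, a zinc finger transcription factor also called ZAC1, had 7.85 on DMSO replicate 1, 7.72 on TBBD replicate 1, 8.67 on DMSO replicate 2 and 8.82 on TBBD replicate 2. Replicate 2 was higher by 0.96, and 15 of its 16 probesets were higher on both replicate 2 arrays. PEG3, a zinc finger protein expressed in placenta and brain, had 5.42, 5.34, 5.53 and 5.52 on DMSO 1, TBBD 1, DMSO 2 and TBBD 2. These 4 values lay close to the olfactory receptor median of 5.40, which stands here for genes not expected in these cells, so whether PEG3 was expressed is uncertain. It rested on 2 probesets, and 10 more that are shared with ZIM2 averaged 5.43, 5.26, 5.38 and 5.73 in the same order.

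H19, a long noncoding RNA of the IGF2 cluster, had 7.51 on DMSO replicate 1, 7.96 on TBBD replicate 1, 8.49 on DMSO replicate 2 and 8.28 on TBBD replicate 2. Replicate 2 was higher by 0.65, with 5 of 7 probesets higher on both arrays. The gap was 0.97 within DMSO and 0.32 within TBBD, the same imbalance as for IGF2. MEG3, the long noncoding RNA beside DLK1, had 5.68, 5.56, 5.72 and 5.44 on DMSO 1, TBBD 1, DMSO 2 and TBBD 2. This mean over 9 probesets lay near the olfactory receptor median, but single probesets did not: the brightest had 7.58, 7.45, 7.20 and 7.88 in the same order, and the next 6.80, 6.65, 6.06 and 5.82. Replicate 2 minus replicate 1 was -0.038 for MEG3, beside 3.93 for its neighbour DLK1. The MEG3 value depended on the probesets used, at 0.30 with their median in place of the mean and -0.59 with dim probesets left out. Of its 9 probesets, 3 were higher on both replicate 2 arrays and 2 were lower on both.

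PEG10, a gene derived from a retrotransposon and needed for placenta formation in the mouse, had the next largest replicate difference among the members after DLK1. Its signal was 8.34 on DMSO replicate 1, 8.09 on TBBD replicate 1, 10.29 on DMSO replicate 2 and 10.56 on TBBD replicate 2. Replicate 2 was higher by 2.21, or 4.62-fold, at rank 13 of all genes, and all 5 probesets were higher on both arrays, by 1.67 to 2.53. MEST, which encodes a protein of the hydrolase fold and marks mesoderm, had 8.75, 8.64, 8.77 and 8.89 on DMSO 1, TBBD 1, DMSO 2 and TBBD 2. Its replicate difference of 0.14 was smaller than the gap of 0.25 between the 2 TBBD arrays, and was 0.44 with the median over probesets.

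**Figure D2:**
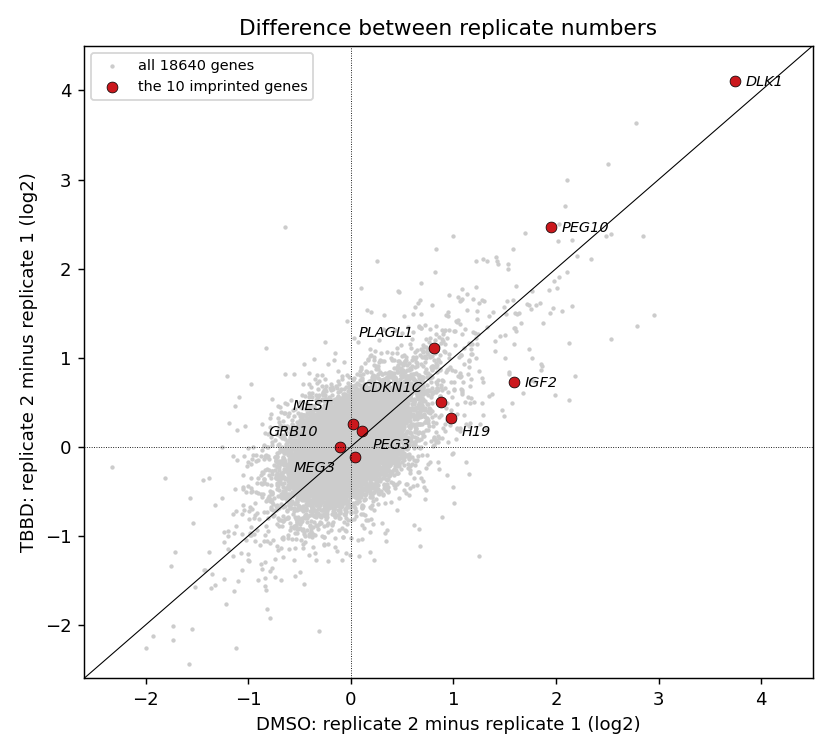
Replicate 2 minus replicate 1 on the log2 scale within DMSO (x axis) and within TBBD (y axis), for all 18640 genes in grey and the 10 imprinted genes in red. The diagonal marks equal differences. DLK1 lies at the far end at 3.75 and 4.11, PEG10 at 1.95 and 2.47, and IGF2, H19 and CDKN1C fall below the diagonal.

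Across the 10 members the median replicate difference was 0.67, against -0.0024 over all genes. Of the members, 8 had both replicate 2 arrays above both replicate 1 arrays and 0 had both below, where the shares over all genes were 25.1% and 25.9%. By mean difference, 8 of 10 lay above 0, as did 49.4% of all genes. A difference of at least 1 on the log2 scale was reached by 3 members, DLK1, PEG10 and IGF2, and by 0.874% of all genes, while 0 members and 0.295% of all genes reached -1. The members were put together with this difference in view, so nothing is read from these counts. In order of size the differences were 3.93 for DLK1, 2.21 for PEG10, 1.16 for IGF2, 0.96 for PLAGL1, 0.69 for CDKN1C, 0.65 for H19, 0.14 for PEG3, 0.14 for MEST, -0.038 for MEG3 and -0.054 for GRB10. The ranges within DMSO and within TBBD overlapped for neighbours in this order from IGF2 to H19 and from PEG3 to GRB10, but not for DLK1 and PEG10, for PEG10 and IGF2 or for H19 and PEG3. All 6 members known as expressed from the father's copy had both replicate 2 arrays higher, with a median of 1.06. So did 2 of the 4 known as expressed from the mother's copy, with a median of 0.31. This split uses the same differences that were in view when the set was made, so nothing is read from it. It counts PEG3 and MEST, which stood at only 0.14 each.

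Probesets of a gene share their transcript and are not replicates, yet they show how even a difference is along it. Of the 87 member probesets, 51 were higher on both replicate 2 arrays and 10 were lower on both, beside 21.2% and 21.9% of all named probesets. The SD over probesets of the replicate difference was 0.93 for DLK1, 0.51 for PLAGL1, 0.34 for PEG10 and 0.40 for H19. Levels also varied within a gene: mean log2 signals of the MEST probesets ran from 4.04 to 11.2 and those of H19 from 5.83 to 10.7. For GRB10 the probesets ran from -0.96 to 1.13 around a gene mean of -0.054, so its mean near 0 holds probesets on either side.

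**Figure D3:**
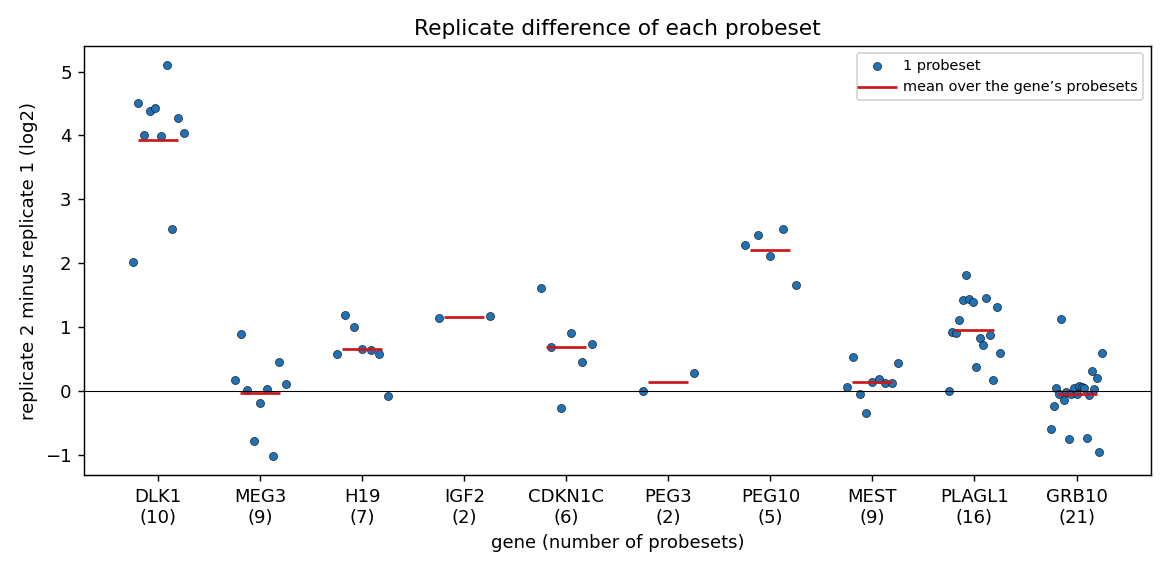
Replicate 2 minus replicate 1 (log2, mean of both treatments) for each probeset of the 10 genes as blue points, with the mean over probesets as a red bar and the number of probesets under the name. All 10 DLK1 and all 5 PEG10 points lie at 1.67 or above, while GRB10 and MEG3 have points on both sides of 0.

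Other genes moved with the replicate number too. Of all genes, 25.1% were higher on both replicate 2 arrays and 25.9% were lower on both. Markers of visceral endoderm and fetal liver, tissues known for DLK1, IGF2 and H19, had a median replicate difference of 1.40, and 11 of 14 measured markers were higher on both replicate 2 arrays. Their mean log2 level was 5.50 on DMSO 1 and 5.66 on TBBD 1, against 6.72 on DMSO 2 and 6.95 on TBBD 2. AFP, the main serum protein of the fetal liver and yolk sac, had 5.50, 5.85, 7.98 and 8.22 in the order DMSO 1, TBBD 1, DMSO 2 and TBBD 2. ALB, the adult liver's albumin, stayed between 5.45 and 5.64, near the olfactory receptor median. Mesenchyme markers had a median of 1.30, with 12 of 14 higher on both replicate 2 arrays and 1 lower on both, and mean levels of 8.04 and 8.14 in replicate 1 against 9.19 and 9.37 in replicate 2.

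Pluripotency markers had a median of -0.20, with 4 of 9 lower on both replicate 2 arrays and 1, SOX2, higher on both. The shares over all genes were 25.9% lower and 25.1% higher. POU5F1, which encodes the core pluripotency factor OCT4, had 7.75 and 7.73 in replicate 1 and 7.20 and 6.60 in replicate 2. Trophoblast markers had a median of -0.51, with 7 of 12 lower and 2 higher on both replicate 2 arrays, although CGA, the alpha subunit of the placental hormone chorionic gonadotropin, was higher by 2.55. Neural markers had a median of 0.17 and muscle markers of -0.078. The part of these cell type markers in the values of the members was not tested.

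By Euclidean distance between mean-centred log2 values over the 4 arrays, the genes on at least 3 probesets most like DLK1 were DCN, MFAP4, CGA, IGFBP5 and FRZB, in that order, at 0.83, 1.12, 1.42, 1.48 and 1.49. DCN encodes the collagen-binding proteoglycan decorin, and its values were 7.38, 6.84, 10.16 and 10.47 on DMSO 1, TBBD 1, DMSO 2 and TBBD 2. MFAP4 encodes a protein of elastic microfibrils, IGFBP5 a binding protein of IGF2, and FRZB a secreted Wnt antagonist. PEG10 held rank 11 in this order of 16818 genes, at 1.74, and PLAGL1 rank 150, while MEG3 held rank 10260. The distance is a description over 4 arrays and says mostly that these genes also had large replicate differences.

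Genes next to the members in their chromosomal clusters, several of them imprinted, were compared in the same way. Of 38 measured neighbours, 18 were higher and 3 lower on both replicate 2 arrays, with a median of 0.15, and 0 reached a difference of 1. Over all genes 25.1% were higher and 25.9% lower on both, and 0.874% reached 1. The neighbours of PEG10 stood highest, at a median of 0.53 over 8 genes, 7 of them higher on both arrays. Among these PON2, a paraoxonase, had 7.59, 7.58, 8.50 and 8.65 in the order DMSO 1, TBBD 1, DMSO 2 and TBBD 2. SGCE, the imprinted sarcoglycan gene directly beside PEG10, had 7.55, 7.74, 7.99 and 8.13. CALCR was the exception among the 8, at -0.060.

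Beside DLK1 and MEG3, RTL1, another retrotransposon-derived gene and measured on 1 probeset, had 5.04 and 4.97 in replicate 1 and 5.74 and 6.11 in replicate 2. DIO3, which inactivates thyroid hormone, went the other way, at -0.28. BEGAIN stood at 0.31. Around H19, IGF2 and CDKN1C the median over 15 genes was 0.14, from 0.67 for IGF2-AS, the antisense transcript of IGF2, to -0.15 for the membrane protein gene CD81. The overlap of IGF2-AS with IGF2 means that their values may not be separate. Medians were 0.065 over 3 neighbours of PEG3, 0.047 over 4 of MEST, 0.080 over 2 of PLAGL1 and 0.018 over 3 of GRB10.

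**Figure D4:**
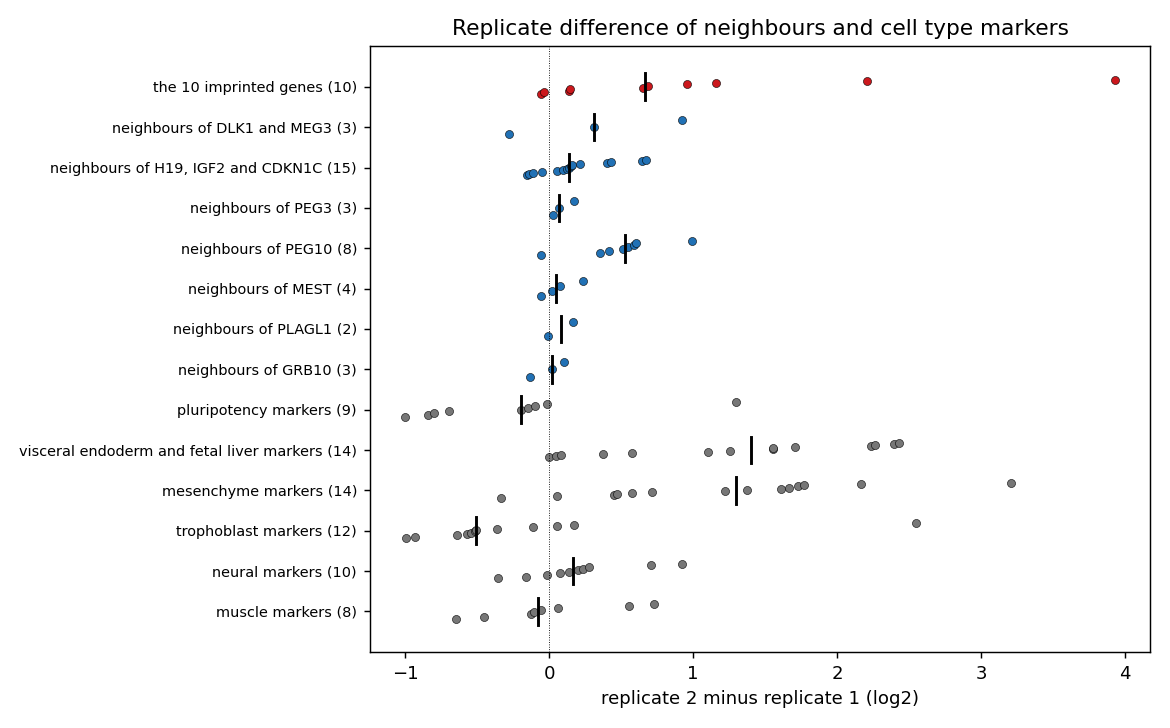
Replicate 2 minus replicate 1 on the log2 scale for the 10 imprinted genes (red), the measured neighbours of each cluster (blue) and cell type markers (grey), 1 point per gene with a black bar at the median and the number of genes in brackets. The median is 0.67 for the members, 0.53 for the neighbours of PEG10, 1.40 for visceral endoderm and fetal liver and 1.30 for mesenchyme.

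The series asked how TBBD alters expression. Taken over both replicate numbers, 0 of the 10 members passed limma's moderated test, and the adjusted p was 1 for each. Over all genes the share passing was 0%, and at an unadjusted p under 0.05 it was 0.746%, with 0 members, the smallest unadjusted p of limma among them being 0.089 for GRB10. The median TBBD minus DMSO difference of the members was 0.0100, against -0.0035 over all genes, and 7 of 10 lay above 0, as did 48.8% of all genes. No member had both TBBD arrays above both DMSO arrays, as 10.5% of all genes did, and 2, MEG3 and GRB10, had both below, as 10.4% did. With 2 arrays a group the standard error was between 0.11 and 1.76, and it includes the difference between replicate numbers. For the members that differed by number the intervals of this fit are therefore wide, and in it a difference of the size seen between single arrays was not detectable. With the replicate number as a block the moderated standard error of DLK1, drawn toward the spread of all genes, was 0.13, and 0 members passed after adjustment. The labels do not say that same-numbered arrays form a pair.

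The differences within a replicate number were unlike each other. IGF2 was higher with TBBD by 0.78 in replicate 1, at rank 44 of 18640 genes, and stood at -0.076 in replicate 2. H19 stood at 0.44 and -0.21, and CDKN1C at 0.31 and -0.064, in the same order. By gene mean these 3 members on chromosome 11 were above their DMSO partner in replicate 1, while in replicate 2 IGF2 and CDKN1C lay close to 0. Their 15 measured neighbours did not share this: 4 were higher with TBBD in replicate 1 and 10 in replicate 2. The medians of these neighbours were -0.058 and 0.15, and over all 18640 genes 8423 and 9919 were higher. Of the 6 CDKN1C probesets, 4 were higher with TBBD in replicate 1 and 4 in replicate 2, and of the 7 H19 probesets 5 and 1 were. Among the 14 probesets shared by IGF2 and INS-IGF2, 13 were higher with TBBD in replicate 1 and 6 in replicate 2, with mean differences of 0.59 and 0.0096. With 1 array per treatment and number, this difference between numbers was not tested.

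For DLK1 the TBBD minus DMSO difference was 0.044 in replicate 1 and 0.41 in replicate 2. All 10 of its probesets were higher with TBBD in replicate 2 against 6 in replicate 1. PEG10 stood at -0.25 and 0.27, and its 5 probesets went from 0 higher in replicate 1 to 5 higher in replicate 2. PLAGL1 stood at -0.14 and 0.16, and MEST at -0.12 and 0.12. PEG10, PLAGL1 and MEST thus lay below DMSO in replicate 1 and above it in replicate 2 by gene mean. Of their probesets, 6 of 16 for PLAGL1 and 3 of 9 for MEST were higher with TBBD in replicate 1, and 11 and 6 were in replicate 2. Of all 87 member probesets, 33 were higher with TBBD in replicate 1 and 47 in replicate 2, beside 48.5% and 50.5% of all named probesets.

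**Figure D5:**
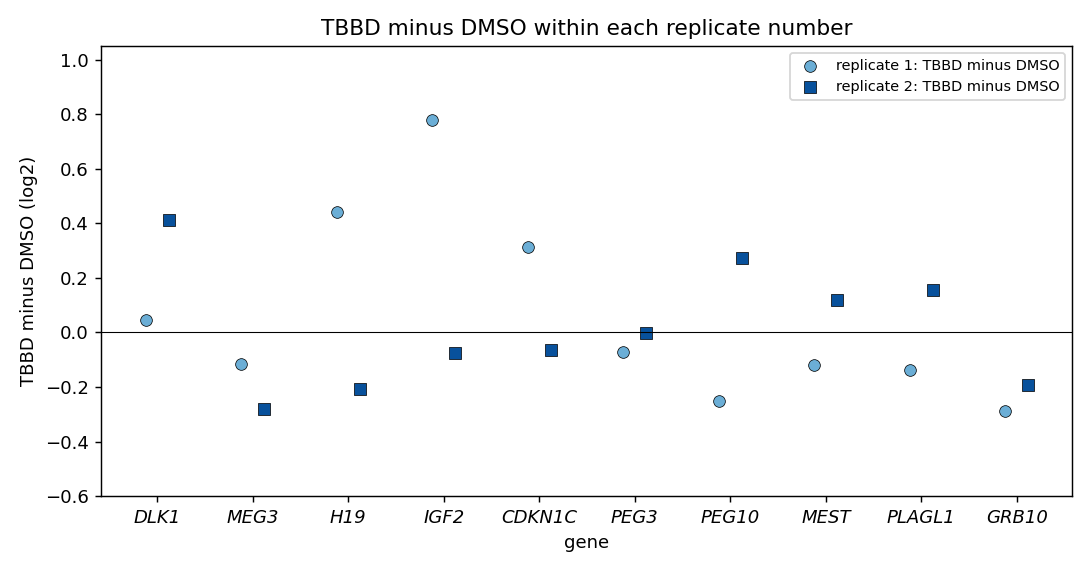
TBBD minus DMSO on the log2 scale for each of the 10 imprinted genes, circles for replicate 1 and squares for replicate 2, each the difference of 2 single arrays. IGF2 has the largest value at 0.78 in replicate 1 and lies at -0.076 in replicate 2. MEG3, PEG3 and GRB10 are below 0 in both.

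MEG3, PEG3 and GRB10 were lower with TBBD in both numbers and DLK1 was higher in both, where 23.0% of all genes were lower in both and 21.5% higher in both. The mean of GRB10 was 7.59 ± 0.072 (SD, n = 2) on the DMSO arrays and 7.35 ± 0.0042 (SD, n = 2) on the TBBD arrays. This gave a difference of -0.24 ± 0.11 (SE), with a 95% confidence interval from -0.53 to 0.053 and an adjusted p of 1 in limma. Of its 21 probesets, 10 had both TBBD arrays below both DMSO arrays, beside 13.3% of all named probesets, and 12 were lower in both numbers, beside 23.7%. GRB10, like MEG3, was picked out by a gene mean that averages these same probesets, so nothing is read from such counts. The mean of MEG3 was 5.70 ± 0.031 (SD, n = 2) on the DMSO arrays and 5.50 ± 0.085 (SD, n = 2) on the TBBD arrays, a difference of -0.20 ± 0.12 (SE) with an interval from -0.50 to 0.10 and an adjusted p of 1 in limma. Of the 9 MEG3 probesets, 1 had both TBBD arrays below both DMSO arrays and 4 were lower in both numbers, beside 13.3% and 23.7%. The brightest MEG3 probeset stood at -0.13 in replicate 1 and 0.68 in replicate 2. PEG3 stood at -0.072 and -0.0029, and its second value is not distinguishable from 0.

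Values of cell type markers are given beside these, and in limma 0 of them passed the adjusted test for TBBD. By mean, 48.8% of all genes lay above 0. All 9 measured pluripotency markers were lower by mean with TBBD, at a median of -0.21, and all 14 of visceral endoderm and fetal liver were higher, at a median of 0.19. Of the mesenchyme markers 12 of 14 were higher, at a median of 0.14. Of 348 olfactory receptor genes, 220 were higher by mean as well. Both TBBD arrays lay below both DMSO arrays for 3 of the 9 pluripotency markers, beside 10.4% of all genes. Both lay above for 2 of the 14 visceral endoderm and fetal liver markers and 1 of the 14 mesenchyme markers, beside 10.5%. The part of the markers in the values of the members was not tested.

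In the fit with group as the only term, the interval of every member, GRB10 and MEG3 included, was wider than its difference. The difference of DLK1 was 0.23 ± 1.76 (SE), with an interval from -4.30 to 4.76, that of IGF2 0.35 ± 0.56 and that of PEG10 0.011 ± 1.00. H19 stood at 0.12 ± 0.34, CDKN1C at 0.12 ± 0.34, PLAGL1 at 0.0088 ± 0.45 and MEST at 0.0012 ± 0.14. Leaving out 1 array makes treatment and replicate number unequal by construction, and moved IGF2 to -0.44 without DMSO replicate 1 and to 1.14 without DMSO replicate 2, and DLK1 to -1.83 without TBBD replicate 2 and to 2.28 without TBBD replicate 1. GRB10 stayed between -0.29 and -0.19 and MEG3 between -0.26 and -0.14 when each array was left out in turn. Their sign could not turn, since both TBBD arrays lay below both DMSO arrays, so nothing is read from it.

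Relatives of the members, most of them not imprinted, were read in the same way. Over 11 genes the median replicate difference was 0.032, with 3 higher and 3 lower on both replicate 2 arrays, near the 25.1% and 25.9% of all genes. DLK2, the paralog of DLK1, stood at 0.032 with a signal of 6.13, 6.05, 6.04 and 6.21 on DMSO 1, TBBD 1, DMSO 2 and TBBD 2. The kinase inhibitor genes CDKN1A and CDKN1B, relatives of CDKN1C, stood at -0.11 and 0.15, and the zinc finger genes PLAG1 and PLAGL2 at 0.24 and -0.14. IGF1 stood at 0.23, INS at 0.13, GRB7 at -0.23, GRB14 at -0.20, RTL3 at -0.087 and RTL1, the neighbour of DLK1 named above, at 0.92. In limma 0 of the 11 passed the adjusted test for TBBD and 0 had an unadjusted p under 0.05.

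Genes through which IGF2 acts, or that bind it, made a further list of 18 that holds receptors, substrates and binding proteins. Their median replicate difference was -0.047, with 7 higher and 6 lower on both replicate 2 arrays, beside 25.1% and 25.9% of all genes. The differences ran from 2.61 for IGFBP5 to -0.44 for IGFBP6, 2 binding proteins of the growth factor. With TBBD 8 were higher and 10 lower, with a median of -0.0065, and 0 passed limma's adjusted test or had an unadjusted p under 0.05.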

How the data were processed

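RNA of 4 samples, 2 with DMSO and 2 with TBBD, was hybridised to HuGene 1.0 ST arrays of Affymetrix. Per the submitters' processing notes the authors used RMA, with its version and settings not stated there, and the deposited values are on a log2 scale. RMA makes the arrays alike in their overall distribution and narrows large differences. Of 247312 probesets, 219181 had 1 gene symbol in the platform annotation, 9980 had several and 18151 none. Only the first were used, 277 probesets with a placeholder cell were left out, and symbols were updated through RefSeq. Log2 values were averaged per gene and array, giving 18640 genes. TBBD was compared with DMSO across all genes with limma 3.58.1 in R 4.3.3 (group as the only term, two-sided, Benjamini-Hochberg adjustment, threshold 0.05). On simulated arrays the fit called 25.4% of 2-fold, 89.6% of 4-fold and 95.5% of 8-fold changes, and 13 of 18440 unchanged genes. The simulated arrays had no difference between replicate numbers, so they do not show how the fit performs on the real arrays. Tables and plots used Python 3.11.15 with pandas 2.3.3, numpy 2.4.6 and matplotlib 3.10.9.

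Groups and replicate numbers come from the sample titles. Median log2 signals were between 6.39 and 6.42 on the 4 arrays, and the number of arrays limits the precision. The labels do not say that the replicates are separate cultures, so p-values reflect the spread among these arrays, which may be technical. No detection call was used. The members and gene lists were chosen with earlier results of these data known. The genes named were the members, their measured neighbours and relatives by summary and example, the 5 genes most like DLK1, and the extremes of the other lists. AFP, ALB, POU5F1, SOX2, BEGAIN, PON2 and SGCE were named as examples after their values were seen. Alternatives were the median over probesets, quantile normalization again, median centring, dim probesets left out, genes with at least 3 probesets, placeholder cells as missing, the replicate number as a block, an intensity trend and each array left out. Counting shared probesets of IGF2 and PEG3 was added after seeing the data.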

Additional observations from a re-analysis of the deposited data

How the results depend on the processing

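The count of members past limma's threshold after adjustment was 0 in each alternative run, and 0 had an unadjusted p under 0.05 except without DMSO replicate 2, where 2 did, IGF2 and H19. With the replicate block the count was 0, the median TBBD minus DMSO difference stayed at 0.0100 and the standard error of IGF2 was 0.20 in place of 0.56. That of DLK1 was 0.13 in place of 1.76 and that of PEG10 0.15 in place of 1.00. For GRB10 it was 0.12 in place of 0.11. These standard errors are moderated by limma, which draws them toward the spread of all genes, and the block leaves each gene little spread of its own. They are therefore not the measured precision of a gene: the within-number differences of IGF2, 0.78 and -0.076, lay much further apart than 0.20. The replicate numbers share only a number in the labels, and across genes the deviations of same-numbered arrays had a correlation of 0.566. The block raised the genes at an unadjusted p under 0.05 from 139 to 496, with 0 after adjustment.

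The median over members of TBBD minus DMSO was -0.0033 with the median over probesets and 0.064 with dim probesets left out. With 1 array left out it was between -0.34 and 0.49. Signs of small TBBD differences turned for H19 (-0.14) and PEG10 (-0.0075) with the median over probesets, for PEG10 (-0.0022) with quantile normalization again, for MEST (-0.042) and PEG3 (0.26) with dim probesets left out, and for PEG3 (0.070) with shared probesets, an alternative added after seeing the data. With 1 array left out the TBBD differences were between -0.31 and 0.56 for CDKN1C, -1.83 and 2.28 for DLK1, -0.37 and 0.60 for H19, -0.44 and 1.14 for IGF2, -0.13 and 0.13 for MEST, -1.22 and 1.25 for PEG10, -0.13 and 0.051 for PEG3, and -0.54 and 0.56 for PLAGL1. Such fits assume that the lone array of a group varies like the others, and leave the replicate numbers unequal.

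The median replicate difference of the members was between 0.59 and 0.67 under the other alternatives and between 0.41 and 0.84 with 1 array left out. Several single members moved by over 1.5 times. With the median over probesets CDKN1C went from 0.69 to 0.37, MEST from 0.14 to 0.44, GRB10 from -0.054 to -0.21 and MEG3 from -0.038 to 0.30. With dim probesets left out MEG3 went to -0.59 and PEG3 from 0.14 to 0.29. MEG3 lay between -0.12 and 0.044 with 1 array left out. The cause of these changes was not tested.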

Other observations

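Of 37 measured imprinted genes of other clusters, 9 were higher and 9 lower on both replicate 2 arrays, near the 25.1% and 25.9% of all genes, and the median difference was 0.023. The 2 ends were RTL8B, a retrotransposon-derived gene on the X chromosome, with 7.78 and 7.67 in replicate 1 and 8.61 and 9.03 in replicate 2, and DLX5, a homeobox gene of bone and craniofacial development, with 7.90 and 7.90 in replicate 1 and 6.84 and 6.52 in replicate 2. RTL8B has close copies, so its value is uncertain. In limma 0 of the 37 passed the adjusted test for TBBD. FAM50B, named after its values were seen, was the only one with an unadjusted p under 0.05, at 0.41, and had 5.90 and 5.73 with DMSO against 6.28 and 6.17 with TBBD.

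A list of genes linked to the upkeep or the removal of imprints held 24 measured genes. Among them are the methyltransferase gene DNMT1, the repressor gene TRIM28 and the demethylation gene TET2. Their median replicate difference was 0.023, with 4 higher and 7 lower on both replicate 2 arrays, beside 25.1% and 25.9% of all genes. DNMT1 had 8.86, 8.60, 8.46 and 8.39 and TRIM28 9.69, 9.35, 9.24 and 9.17 on DMSO 1, TBBD 1, DMSO 2 and TBBD 2, both named after their values were seen. The ends of the list were TET2, with 6.57 and 6.52 in replicate 1 and 6.86 and 6.98 in replicate 2, and ZFP42, with 7.75 and 7.54 against 6.63 and 6.65. In limma 0 of the 24 passed the adjusted test for TBBD, and 0 had an unadjusted p under 0.05. Small nucleolar RNAs of the DLK1 and MEG3 cluster, a list of 6 added after seeing the data, had a median replicate difference of 0.023 and a median level of 5.33, near the olfactory receptor median of 5.40, and some are near-identical copies.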
